A study of Mus musculus with 10 samples.

Results

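The 10 scavenger receptor genes *Cd36*, *Msr1*, *Marco*, *Olr1*, *Scarb1*, *Scarf1*, *Stab1*, *Scara3*, *Scara5* and *Lrp1* were taken by gene symbol from the 25233 entries of the expression table that carry a symbol, and all 10 were found. They were compared between libraries labelled hypHSC and qHSC, for hypertrophied and quiescent hepatic stellate cells, which were isolated from mouse liver by their low density and their intrinsic fluorescence. By the RNA markers used here, the hypHSC libraries went against that label. Each held at least 1015618 normalized counts of 10 macrophage markers and at most 25004 of 10 quiescent stellate markers. The paper identified the sorted hypHSCs by droplet fluorescence and reported staining for desmin, cRBP1 and αSMA protein. The name is kept below only as the label of the group. *Cd36*, *Msr1*, *Olr1* and *Stab1* were higher in hypHSCs, by 489.8, 21.4, 12.7 and 17.1 times in mean normalized count. *Marco*, *Scarb1*, *Scarf1* and *Lrp1* did not pass the test, and *Scara3* and *Scara5* were too low to be tested.

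Scavenger receptors are surface proteins that bind modified lipoproteins, lipids, microbial surfaces and cell debris, and carry them into the cell. They are grouped into classes by structure rather than by ancestry, so that class A receptors are trimers with a collagen-like stalk, class B receptors span the membrane at both ends, and *Lrp1* belongs to the LDL receptor family. In the liver they are best known from Kupffer cells and sinusoidal endothelial cells, which clear the blood of modified LDL, while hepatocytes use *Scarb1* and *Lrp1* to take up lipoprotein lipids.

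The hypHSC group holds 5 libraries, made from C57BL/6J mice that were fed the CDAHFD, a high-fat diet without choline under which the liver becomes steatotic and fibrotic. hypHSC 1 and 2 came from mice of 19 weeks after 13 weeks of the diet, and hypHSC 3, 4 and 5 from mice of 18 weeks after 12 weeks. The qHSC group holds 5 libraries from C57BL/6J mice on the standard diet, aged 36 weeks for qHSC 1, 2 and 5 and 34 weeks for qHSC 3 and 4. Neither group carries a transgene. Diet, age, digestion of the liver, antibiotics in the buffers (hypHSC only) and sorting gate differed together and cannot be told apart. The hypHSC preparations had been chosen for RNA quality, and the qHSC preparations had been selected as well. Each library is 1 preparation of sorted cells, and the mouse behind it is not given in the sources used here. The paper chose the hypHSC preparations among more samples than it had mice, so that some may share a mouse. P-values measure the spread between preparations and take these as independent. Values are normalized counts, that is reads per gene divided by a size factor per library. The libraries held 30534719 to 47317028 reads on genes with a symbol. A floor of 3 reads corresponded to 2.25 to 4.54 normalized counts, which covers counting error only.

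Before the receptors were compared, the libraries were set against marker genes of liver cell types. Over all genes tested, 17.8% were higher and 21.7% lower in hypHSCs by the criteria given below. The summed count of 10 quiescent stellate markers was 8710.4 to 25004 for hypHSC and 750690.1 to 1383753 for qHSC libraries, and all 10 were lower in hypHSCs. The summed count of 10 macrophage markers, among them *Lyz2*, *Csf1r* and *Adgre1*, was 1015618 to 1310547 for hypHSC and 3693 to 82147 for qHSC libraries, and all 10 were higher in hypHSCs. Thus every library labelled hypHSC held more counts of the macrophage list than of the quiescent stellate list, and every qHSC library held fewer. Of the 6 Kupffer cell markers, 4 were higher in hypHSCs by limma, whereas DESeq2 and edgeR each called 2, of which 1, *Timd4*, was lower. The Kupffer sums overlapped, at 11933 to 25395 for hypHSC and 872 to 36172 for qHSC libraries. The highest Kupffer sums among the qHSC libraries were those of qHSC 4 (36172) and qHSC 1 (16179), and the other 3 lay between 872 and 1633. Sinusoidal endothelial markers summed to 533 to 1393 against 2344 to 4201, with 1 higher and 4 lower in hypHSCs of 9 tested. For hepatocyte markers the sums were 8571 to 95349.9 and 15557 to 60125, with 0 of 8 called by limma, DESeq2 or edgeR and 0 at an unadjusted p under 0.05 in limma. In the neutrophil list all 4 tested markers were higher in hypHSCs, with sums of 1853 to 7956 against 3.75 to 384, and *Retnlg* and *Ngp* were at 0 in all qHSC libraries. Testing needed 10 normalized counts in 5 libraries. *Retnlg* and *S100a9*, at means of 0 and 1.54 in qHSCs, met this through hypHSC libraries alone and could only come out higher. Of the portal fibroblast and mesothelial markers 4 of 5 tested were higher in hypHSCs, with sums of 231 to 2745 against 205 to 436. *Krt19*, at a mean of 1.97 in qHSCs, likewise met the minimum through hypHSC libraries alone. Of the lymphocyte markers 0 of 3 tested were called by limma, DESeq2 or edgeR, 0 had an unadjusted p under 0.05 in limma, and the sums were 15.5 to 507 against 10.2 to 159. Mitochondrial genes took 2.21% to 12.8% of the reads in hypHSC and 1.25% to 1.61% in qHSC libraries, and entries without a symbol 10.8% to 29.1% and 8.98% to 10.2%. The groups were thus apart on both measures, whose part in the receptor values was not tested either. In bulk libraries such as these, fewer cells of a type and less RNA per cell cannot be told apart, and the part that these markers' cells play in the receptor values was not tested.

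Promoter sequence was at hand for 5 of the 10 genes, and 4 windows are shown, those of the 3 called genes among them and that of *Marco*, whose groups overlapped. Each is the 250 bases before a RefSeq start site, taken from the GRCm38.p6 table and located by an exact and unique match on GRCm39, 5′ to 3′ on the strand of the gene. Capitals mark matches, on either strand, to any of 4 motifs. GAGGAAG is a core of sites for PU.1 and other ETS factors, and TGAGTCA is the site of AP-1. AGGTCA is the unit that nuclear receptors bind, and TATAAA is the box of the core promoter. No match overlapped another.
Cd36, chr5:18040895-18041144, minus strand: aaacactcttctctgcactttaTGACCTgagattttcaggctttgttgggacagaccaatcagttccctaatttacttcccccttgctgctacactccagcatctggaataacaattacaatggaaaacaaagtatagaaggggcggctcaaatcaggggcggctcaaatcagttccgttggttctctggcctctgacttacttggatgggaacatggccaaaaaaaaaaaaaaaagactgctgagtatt
Olr1, chr6:129484129-129484378, minus strand: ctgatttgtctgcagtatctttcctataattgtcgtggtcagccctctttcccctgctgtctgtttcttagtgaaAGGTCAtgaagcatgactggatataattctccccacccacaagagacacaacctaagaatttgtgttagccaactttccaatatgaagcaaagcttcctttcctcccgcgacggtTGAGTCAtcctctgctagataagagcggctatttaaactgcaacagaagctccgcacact
Stab1, chr14:30890599-30890848, minus strand: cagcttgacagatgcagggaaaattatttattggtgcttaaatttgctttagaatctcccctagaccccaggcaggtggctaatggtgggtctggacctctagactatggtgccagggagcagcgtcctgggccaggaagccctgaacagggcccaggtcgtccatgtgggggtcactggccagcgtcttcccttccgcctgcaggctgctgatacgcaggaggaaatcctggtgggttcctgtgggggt
Marco, chr1:120432754-120433003, minus strand: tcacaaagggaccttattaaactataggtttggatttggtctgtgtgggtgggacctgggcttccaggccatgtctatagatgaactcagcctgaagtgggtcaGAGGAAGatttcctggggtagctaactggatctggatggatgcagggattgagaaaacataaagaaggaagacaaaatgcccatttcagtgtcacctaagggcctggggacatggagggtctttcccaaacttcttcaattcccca
The *Cd36* window has AGGTCA on the other strand, beginning 228 bases before the start site. *Olr1* has AGGTCA 175 bases and TGAGTCA 60 bases before its start site. *Marco* has GAGGAAG 146 bases before its start site. In the *Stab1* and *Lrp1* windows no match to these motifs was found. Over all 32851 promoter windows of this length, 10.6% hold GAGGAAG and 4.46% hold TGAGTCA. The shares were 14.02% for AGGTCA and 12.4% for TATAAA. A match is thus common and is given here as a description only. The GC content was 43.2% for *Cd36*, 45.2% for *Olr1*, 47.6% for *Marco*, 57.2% for *Stab1* and 67.2% for *Lrp1*, against a median of 52.4% over all windows. The RefSeq start of *Cd36* lies 181 bases from the nearest GENCODE start and 14002 bases from that of its canonical transcript, whereas the other 4 starts coincide with the canonical one. *Cd36* thus has widely spaced start sites, and which of them was used cannot be read from counts per gene.

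Differential expression was tested with limma on log2(normalized count + 1), for the 14630 genes that reached 10 normalized counts in 5 or more libraries. A gene that reached this minimum in the libraries of 1 group only could come out higher in that group only. The word called marks genes past both of the study's thresholds, an adjusted p up to 0.05 and a log2 fold change of 1 or more in either direction. The groups differed broadly, since 5779 genes (39.5%) were called, 2602 (17.8%) higher and 3177 (21.7%) lower in hypHSCs. Of the 10 receptor genes 8 were tested, 4 were called higher and 0 lower. By DESeq2 and edgeR 0 were lower as well, and 0 had a lower mean with an unadjusted p under 0.05 in limma. The groups did not overlap in the same 4 genes, against 39.5% of all genes tested. The median log2 fold change of the 8 tested members was 2.57, beside -0.20 over all genes tested. Fold changes are differences between group means of log2(normalized count + 1), hypHSCs over qHSCs. They are thus another measure than the ratios of mean counts given at the start. The added count shrinks the change of low genes, whereas a single low library can enlarge a change. For *Cd36* the value was 10.05, but 8.91 without qHSC 2, and for *Msr1* 5.99, but 5.33 without qHSC 2.

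**Figure D1:**
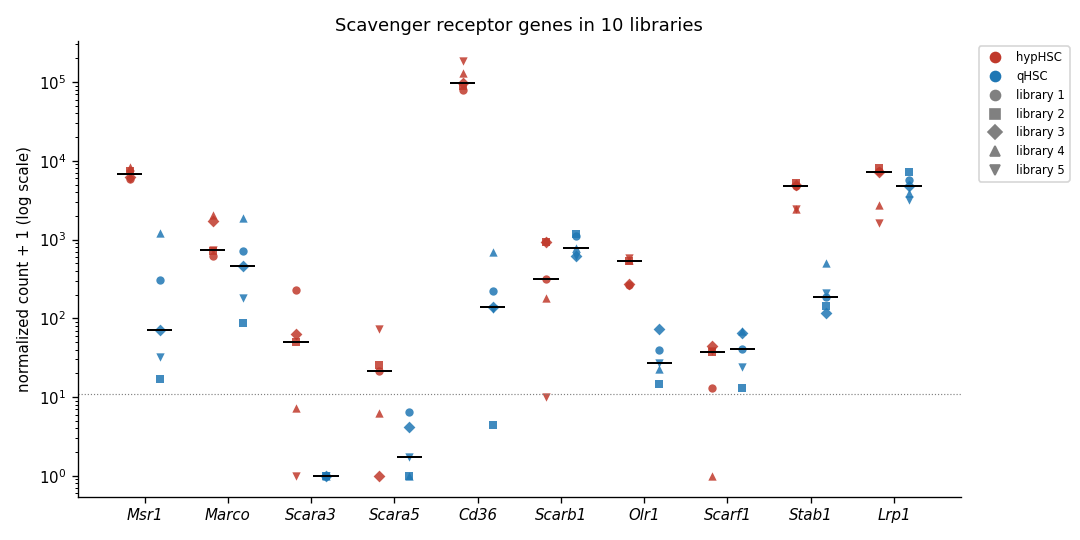
Normalized counts plus 1 (log scale) of the 10 receptor genes in each of the 5 hypHSC (red) and 5 qHSC (blue) libraries, with the symbol giving the library number, black bars the group medians, and the dotted line the minimum of 10 normalized counts used for testing. For *Cd36*, *Msr1*, *Olr1* and *Stab1* all red points lie above all blue points, while the groups overlap in the other 6 genes.

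Among the class A receptors, *Msr1* (chromosome 8, 40034726 to 40095720, minus strand, GRCm39), the macrophage receptor for acetylated and oxidized LDL, was called. It had 5827, 7350.3, 6266, 8411 and 6814 normalized counts in hypHSC 1 to 5, and 304, 16.2, 70.9, 1195 and 31.5 in qHSC 1 to 5. The hypHSC libraries were alike, whereas the qHSC libraries were widely spread, with qHSC 4 and qHSC 1 the highest, as they were for the Kupffer cell markers. The means were 6933 ± 1005 and 323 ± 501 (SD, n = 5 libraries per group), and the log2 fold change was 5.99 ± 0.95 (SE, limma adjusted p = 0.000364). An exact two-sided permutation test over all arrangements of the libraries gave p = 0.00794, the smallest it can give. In DESeq2 the fold change was 4.42 but no adjusted p was given, and without qHSC 1 and 4, an alternative added after the values had been seen, it was 7.65.

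*Marco* (chromosome 1, 120402267 to 120432753, minus strand), a class A receptor for bacteria and particles found on Kupffer cells, had 609, 709, 1701, 2047 and 738 normalized counts in hypHSC 1 to 5. In qHSC 1 to 5 it had 717, 85.2, 461, 1861 and 179. The groups overlapped, since qHSC 4 exceeded all hypHSC libraries but hypHSC 4, and the means were 1161 ± 664 and 661 ± 715 (SD, n = 5). The log2 fold change of 1.37 ± 0.73 (SE) did not pass the test (limma adjusted p = 0.144). An exact permutation test gave p = 0.143. Without qHSC 4 the fold change was 1.93 and passed (limma adjusted p = 0.0288), and without qHSC 1 and 4, which was again chosen after the values had been seen, it was 2.41 (limma adjusted p = 0.012). It was smaller, at 0.82, without qHSC 2, 0.81 in DESeq2, 0.86 in edgeR and 0.44 with libraries scaled on *Hprt*, *Pgk1* and *Actb*, none of which passed.

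The other 2 class A genes were near the limit of detection. *Scara3* (chromosome 14, 66156844 to 66191195, minus strand), known as a protein of the oxidative stress response, had 229, 48.7, 61.5, 6.29 and 0 normalized counts in hypHSC 1 to 5 and no read in any qHSC library. The hypHSC libraries held 297 reads in all, 170 of them in hypHSC 1. Against a floor of 3 reads per qHSC library, the mean was at least 27.8-fold higher in hypHSCs, or at least 11.7-fold higher without hypHSC 1, and an exact permutation test gave p = 0.0476. With no filter on low values its fitted log2 fold change was 4.46 (limma adjusted p = 0.0129), a value that depends on the added count. *Scara5* (chromosome 14, 65903851 to 66002274, plus strand), a receptor for ferritin, had 20.2, 24.9, 0, 5.25 and 71.1 in hypHSC 1 to 5 and 5.43, 0, 3.15, 0 and 0.75 in qHSC 1 to 5. Its groups overlapped at 0, and an exact permutation test gave p = 0.111.

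Of the class B receptors, *Cd36* (chromosome 5, 17986688 to 18093957, minus strand), which binds long-chain fatty acids, oxidized LDL and thrombospondin, showed the largest fold change of the members. It had 79927, 88183, 97371, 128561 and 183245 normalized counts in hypHSC 1 to 5. In qHSC 1 to 5 it had 221, 3.41, 136, 687 and 131, the value of qHSC 2 resting on 4 reads. The lowest hypHSC library stood 116 times above the highest qHSC library, qHSC 4. The means were 115457 ± 42131 and 236 ± 264 (SD, n = 5), and the log2 fold change was 10.05 ± 1.05 (SE, limma adjusted p = 1.95e-05). An exact permutation test gave p = 0.00794. Over 23 alternative settings the fold change lay between 8.91 and 11.32, and the gene was called in each.

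*Scarb1* (chromosome 5, 125354153 to 125418158, minus strand) encodes SR-BI, the HDL receptor that takes up cholesteryl esters. It had 313, 941, 927, 179 and 9.07 normalized counts in hypHSC 1 to 5, a 104-fold range in which hypHSC 5 was lowest. In qHSC 1 to 5 it had 1105, 1160.5, 615, 779 and 619, and the groups overlapped. The means were 474 ± 434 and 856 ± 262 (SD, n = 5). The log2 fold change of -1.92 ± 1.04 (SE) did not pass the test (limma adjusted p = 0.150), nor did the exact permutation test (p = 0.119). Without hypHSC 5 it was -0.81, and with libraries scaled on *Hprt*, *Pgk1* and *Actb* it was -2.86 and passed (limma adjusted p = 0.0143).

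*Olr1* (chromosome 6, 129462209 to 129484129, minus strand), the class E receptor LOX-1 for oxidized LDL, had 260.1, 530.0, 269, 541 and 575 normalized counts in hypHSC 1 to 5. In qHSC 1 to 5 it had 38.01, 13.6, 71.6, 21.4 and 26.2. The lowest hypHSC library was above the highest qHSC library, which here was qHSC 3 and not qHSC 4 or qHSC 1. The means were 435 ± 157 and 34.2 ± 22.7 (SD, n = 5), and the log2 fold change was 3.76 ± 0.47 (SE, limma adjusted p = 6.73e-05). An exact permutation test gave p = 0.00794.

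*Stab1* (chromosome 14, 30860970 to 30890598, minus strand) encodes stabilin-1, a class H receptor of sinusoidal endothelium and macrophages that clears SPARC and modified LDL. It had 4722, 5259, 4886, 2471 and 2467 normalized counts in hypHSC 1 to 5 and 185, 141, 117, 506 and 211 in qHSC 1 to 5. hypHSC 4 and 5 stood below the other 3 hypHSC libraries, and all 5 stood above qHSC 4, the highest of its group. The means were 3961 ± 1376 and 232 ± 157 (SD, n = 5), and the log2 fold change was 4.22 ± 0.39 (SE, limma adjusted p = 8.85e-06). An exact permutation test gave p = 0.00794. Other annotated genes share 5.49% of its exon bases, and reads there were counted without regard to strand.

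*Scarf1* (chromosome 11, 75404367 to 75417406, plus strand), a class F receptor for modified LDL and for apoptotic cells coated with C1q, was low in both groups. It had 12.1, 36.2, 44.1, 0 and 37.8 normalized counts in hypHSC 1 to 5 and 39.8, 11.9, 64.6, 68.5 and 23.2 in qHSC 1 to 5. The groups overlapped, and the log2 fold change of -1.22 ± 1.03 (SE, limma adjusted p = 0.352) was -0.23 without hypHSC 4, the library without a read.

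*Lrp1* (chromosome 10, 127374063 to 127457018, minus strand), a large endocytic receptor for apolipoprotein E, α2-macroglobulin and protease-inhibitor complexes, was abundant in both groups. It had 7329, 7998, 7207, 2783 and 1635 normalized counts in hypHSC 1 to 5, and 5696, 7238, 4809.6, 3948 and 3158 in qHSC 1 to 5. The first 3 hypHSC libraries lay at or near the highest qHSC library, and hypHSC 4 and 5 lay below all qHSC libraries. The means were 5391 ± 2948 and 4970.0 ± 1583 (SD, n = 5), and the log2 fold change of -0.07 ± 0.44 (SE) did not pass the test (limma adjusted p = 0.905). The direction depended on the libraries used and on the scaling. Without hypHSC 4 and 5, an alternative added after the values had been seen, the value was 0.65, under the fold threshold (limma adjusted p = 0.0415). Without qHSC 2 it was 0.078. With libraries scaled on *Hprt*, *Pgk1* and *Actb* it was -1.01 (limma adjusted p = 0.0224). With upper quartile scaling and in DESeq2 and edgeR it was 0.051, 0.12 and 0.16. hypHSC 4 and 5 also had the fewest genes with a read, 14949 and 14028, where the other 8 libraries had 15703 to 16634, and the part of this in the values was not tested.

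**Figure D2:**
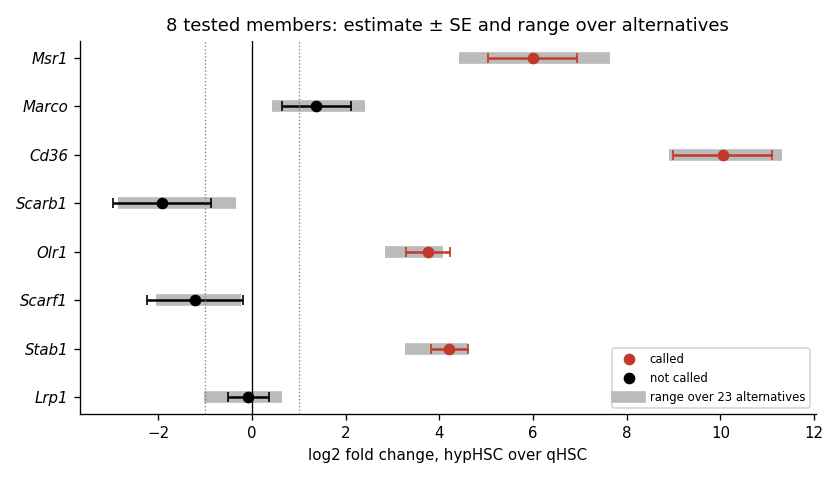
Log2 fold changes, hypHSC over qHSC, of the 8 tested receptor genes with limma SE (points and whiskers, red where called), with the range over 23 alternative settings in grey, and dotted lines at the fold threshold of 1 in either direction. *Cd36*, *Msr1*, *Olr1* and *Stab1* stay above 2.84 throughout, whereas the range of *Lrp1* spans 0.

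Levels of different receptors were compared per length, as FPKM from recovered reads and the summed exon length of all isoforms, a length that lowers the FPKM of genes with many isoforms such as *Cd36*. In hypHSCs the order was *Cd36* (214 ± 58.4 FPKM, SD, n = 5), *Msr1* (26.05 ± 3.43), *Marco* (14.6 ± 8.73), *Stab1* (9.45 ± 3.96) and *Lrp1* (6.55 ± 3.88). *Olr1*, *Scarb1*, *Scara3*, *Scarf1* and *Scara5* followed at mean FPKM of 2.53, 1.17, 0.405, 0.145 and 0.0873. *Cd36* exceeded *Msr1* in every hypHSC library. The ranges of *Msr1*, *Marco*, *Stab1* and *Lrp1* each overlapped with the next. Within every hypHSC library, though, *Msr1* exceeded *Marco*, and *Stab1* exceeded *Lrp1*. *Marco* exceeded *Stab1* in hypHSC 3, 4 and 5 only. In qHSCs the order was *Marco* (10.6 ± 11.5), *Lrp1* (7.44 ± 2.44), *Scarb1* (2.53 ± 0.786), *Msr1* (1.57 ± 2.43), *Stab1* (0.687 ± 0.470) and *Cd36* (0.574 ± 0.644). *Scarf1*, *Olr1* and *Scara5* followed at 0.294, 0.265 and 0.00942. The ranges of *Lrp1* (4.35 to 10.7) and *Scarb1* (1.69 to 3.40) did not overlap, while those of the other neighbours down to *Olr1* did. *Cd36* ranked 185th of 23656 genes by mean FPKM in hypHSCs and 10404th in qHSCs.

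The makeup of the receptor pool differed accordingly. The 10 genes summed to 207 to 344 FPKM in hypHSCs and 10.01 to 47.6 in qHSCs. *Cd36* took 72.3% to 88.2% of this sum in hypHSCs and 0.0507% to 3.52% in qHSCs. *Lrp1* took 0.485% to 4.19% in hypHSCs and 12.4% to 66.4% in qHSCs, and *Scarb1* 0.00533% to 0.942% and 4.86% to 21.1%. These shares are of 1 sum, so that a high *Cd36* lowers all others. Among the qHSC libraries the leading receptor was not the same, since *Marco* led in qHSC 1, 3 and 4, with 43.3%, 39.9% and 62.5%, and *Lrp1* in qHSC 2 and 5, with 66.4% and 43.4%. In qHSC 3 the lead was narrow, with *Lrp1* at 39.1%.

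**Figure D3:**
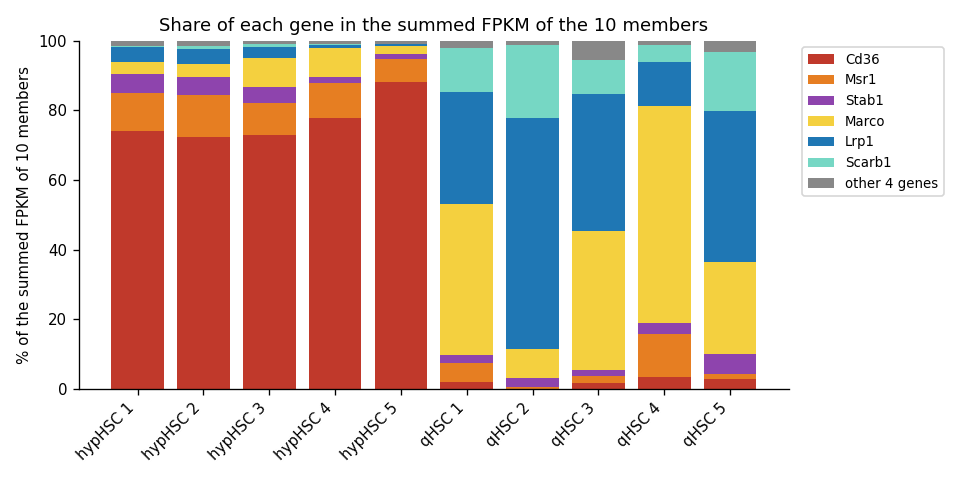
Share of each receptor gene in the summed FPKM of the 10 genes (percent), stacked by library. *Cd36* fills 72.3% to 88.2% of the hypHSC bars, whereas the qHSC bars consist mainly of *Marco*, *Lrp1* and *Scarb1* in varying parts.

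Among the qHSC libraries some of the receptors were highest where the Kupffer cell markers were. qHSC 4, with a Kupffer sum of 36172, was the highest qHSC library for *Msr1*, *Marco*, *Cd36* and *Stab1*. It was also the highest for the low *Scarf1*, at 68.5 normalized counts beside 64.6 in qHSC 3. *Scarb1* and *Lrp1* were highest in qHSC 2, and *Olr1* in qHSC 3. qHSC 2, with a Kupffer sum of 1061, was the lowest for *Msr1*, *Marco*, *Cd36*, *Olr1* and *Scarf1*. However, qHSC 3 had the lowest Kupffer sum, 872, and the lowest *Stab1*. The summed macrophage markers were likewise highest in qHSC 4 (82147) and qHSC 1 (36703), and lowest in qHSC 2 (3693). At 16179 the Kupffer sum of qHSC 1 lay within the range of the hypHSC libraries, yet its *Msr1* (304), *Cd36* (221) and *Stab1* (185) lay below every hypHSC library, as did its macrophage sum. *Marco* of qHSC 1 (717) lay within the hypHSC range. Single Kupffer markers did not move alike, since *Clec4f* averaged 4929.7 ± 1757 in hypHSCs and 5953 ± 8029.5 in qHSCs (SD, n = 5, log2 fold change 1.15, but -0.27 in DESeq2 and -0.24 in edgeR), whereas *Timd4*, a marker of embryonically seeded Kupffer cells, averaged 17.8 ± 15.0 and 505 ± 739 (log2 fold change -3.14). Neither passed the test (limma adjusted p = 0.336 and 0.0852), though 4 of 23 alternatives called *Timd4*.

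**Figure D4:**
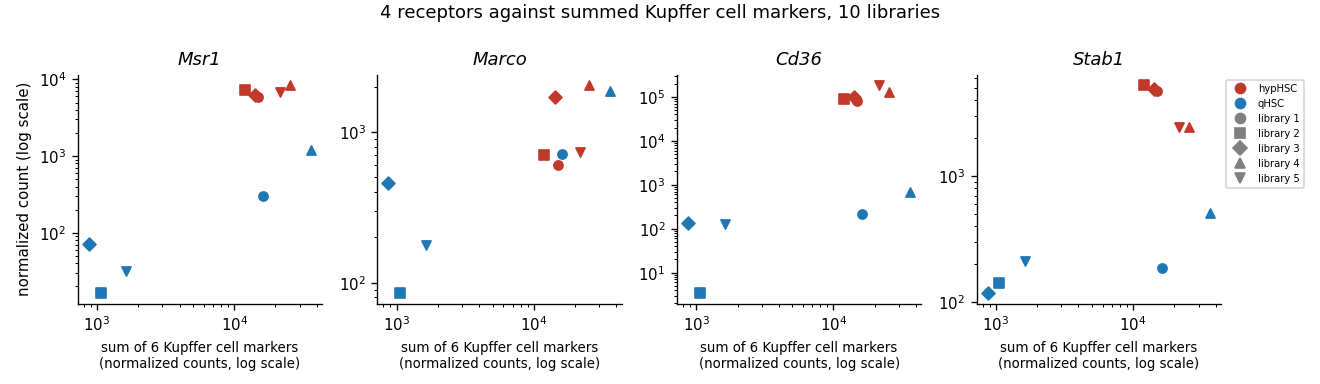
Normalized counts of *Msr1*, *Marco*, *Cd36* and *Stab1* against the summed normalized counts of 6 Kupffer cell markers (both on log scales), 1 point per library, hypHSC in red and qHSC in blue, with the symbol giving the library number. The blue point of qHSC 1, the only qHSC library with a Kupffer sum within the hypHSC range, lies below all red points for *Msr1*, *Cd36* and *Stab1* and among them for *Marco*.

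Within hypHSCs, the diet lasted 13 weeks for 2 libraries and 12 weeks for 3. Of 14630 genes 1 was called between them (0.00684%), *D830030K20Rik*, named here after its value was seen, and 1870 had an unadjusted p under 0.05 in limma. 0 of the 8 tested receptors were called by limma, DESeq2 or edgeR, and 1, *Lrp1*, had an unadjusted p under 0.05 (0.0402, limma). The largest differences were *Scarb1*, 2.19 ± 1.41 higher on the log2 scale at 13 weeks (limma adjusted p = 0.472), and *Lrp1*, 1.26 ± 0.54 higher (limma adjusted p = 0.387). The exact permutation test cannot go below p = 0.1 with 2 against 3 libraries. The low values were those of hypHSC 4 and 5, while hypHSC 3, also of 12 weeks, had *Scarb1* and *Lrp1* counts of 927 and 7207, close to those of hypHSC 2. Without hypHSC 3 both genes were called, at 3.67 and 1.84 (limma adjusted p = 0.0452 and 0.0148), together with 2478 genes in all.

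For each tested receptor the genes with the most similar profile were sought, as the smallest root mean square (RMS) difference between log2 profiles over the 10 libraries, each centred on its own mean. *Trem2*, a lipid receptor of macrophages, was nearest to *Cd36* (RMS difference 0.981), followed by *Atp8b4* (1.24). *Msr1* had *Clec12a* (0.459) and *Cd53* (0.472) as its nearest, *Olr1* had *Gpr34* (0.391) and *5830432E09Rik* (0.469), and *Stab1* had *Il6ra* (0.331) and *Fcrlb* (0.401). For the receptors that were not called, the nearest were *Gvin3* (0.656) and *Kcna2* (0.657) for *Marco*, *Trappc10* (0.261) and *Pot1a* (0.293) for *Scarb1*, *Prr22* (0.662) and *Zscan18* (0.752) for *Scarf1*, and *Eif2ak2* (0.203) and *Plxnb2* (0.221) for *Lrp1*. The nearest gene of *Cd36* lay farther away than that of any other tested receptor. The profiles span both groups, so that a neighbour of a called receptor is picked in part by a like difference between the groups. The RMS difference is also not scaled and can grow with the size of a change, which was largest for *Cd36*. *Fcrlb*, at a mean of 0.684 in qHSCs, met the minimum for testing through hypHSC libraries alone and could only come out higher.

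Other genes with scavenger receptor function were divided. Of 13 tested of 15, 5 were higher and 3 lower in hypHSCs, beside 17.8% and 21.7% of all genes tested. The median log2 fold change was 0.65. *Cd68*, the lysosomal class D receptor of macrophages, rose most, from 2603 ± 3172 to 157272 ± 33249.8 normalized counts (SD, n = 5, log2 fold change 6.80, limma adjusted p = 1.99e-05). *Mrc1*, the mannose receptor (3.30), *Cd5l*, a secreted macrophage protein with scavenger domains (3.23), *Cd44*, the hyaluronan receptor (3.01), and *Stab2*, the paralog of *Stab1* (1.92, limma adjusted p = 0.0429), rose as well. The call of *Stab2* was lost in 13 of 23 alternatives, and the call of *Cd5l* in 3. *Scarf2*, the paralog of *Scarf1*, fell most, from 260.0 ± 73.7 to 29.3 ± 19.4 (log2 fold change -3.29, limma adjusted p = 0.000177). *Ssc5d*, a soluble scavenger protein (-2.23), and *Scarb2*, the lysosomal member of class B also called LIMP-2 (-1.34), fell in 5 of 5 hypHSC libraries below the lowest qHSC library. *Cd163*, the haemoglobin receptor, had 9.43 to 54.5 normalized counts in hypHSCs and 16.5 to 1992 in qHSCs, highest in qHSC 4 and qHSC 1, and was not called (-2.71, limma adjusted p = 0.0733), though it was in 6 of 23 alternatives, lower each time.

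In the LDL receptor family, the relatives of *Lrp1*, 9 of 12 genes were tested, with a median of 0.11. Of these 3 were higher and 2 lower, beside 17.8% and 21.7% of all genes tested. *Sorl1*, a sorting receptor, had 0 to 9.41 normalized counts in qHSCs and rose to 733 to 1409.6 in hypHSCs (log2 fold change 8.31, limma adjusted p = 3.56e-06). *Lrp8*, the reelin and apolipoprotein E receptor (5.34), and *Lrp12* (3.37) rose too. *Sorl1* and *Lrp8* reached 10 normalized counts in the 5 hypHSC libraries only. Both thus entered the test through that group alone and could only come out higher. *Lrp3* fell most (-4.49, limma adjusted p = 0.00339), followed by *Lrp5*, a Wnt co-receptor (-2.46).

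Ligands of the receptors were measured in the same libraries. Of 21 tested of 22, 9 were higher and 5 lower in hypHSCs, beside 17.8% and 21.7% of all genes tested. The median was 0.29. *Plau*, the urokinase, which *Lrp1* clears, rose most (log2 fold change 6.56, limma adjusted p = 8.31e-05), with 0 to 18.8 normalized counts in qHSCs and 138 to 560.1 in hypHSCs. *Lpl*, the lipoprotein lipase that also bridges lipoproteins to *Lrp1*, rose from 4467 ± 644 to 61289 ± 19716 (3.73). The C1q chains that *Scarf1* binds, *C1qa*, *C1qb* and *C1qc*, rose (3.87, 4.41 and 4.28), as did the ferritin chains *Fth1* and *Ftl1* (2.81 and 3.01), the light chain being the ligand of *Scara5*. The call of *C1qa* was lost with hypHSCs at 12 weeks only (3.06, limma adjusted p = 0.0808). *Sparc*, cleared by stabilin-1, fell from 47448 ± 4000.2 to 12029 ± 9782 (-2.32), and *Ccn2*, a matricellular ligand of *Lrp1*, fell most (-3.34). *Apoe* ranged from 88855 to 1306746 in hypHSCs and from 153995 to 582005 in qHSCs, and *Thbs1*, which encodes the thrombospondin ligand of *Cd36*, had 254 to 910.0 and 244 to 416, and neither was called (0.29 and 0.54). Both turned negative, at -0.65 and -0.40, with libraries scaled on *Hprt*, *Pgk1* and *Actb*, and *Apoe* also with equal totals (-0.065).

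Adaptors and partner proteins were tested in full, 16 of 16, with a median of 0.51. Of these 6 were higher and 3 lower, beside 17.8% and 21.7% of all genes tested. *Cav1*, the caveolin that holds *Cd36* at the surface, rose most, with 0 to 25.6 normalized counts in qHSCs and 488 to 1156 in hypHSCs (log2 fold change 7.95, limma adjusted p = 6.65e-05). Of the tetraspanin partners of *Cd36*, *Cd9* rose from 1059 ± 401 to 38182 ± 4746 (5.23) while *Cd81* fell from 89752 ± 17382 to 16404 ± 5225 (-2.50). The Src family kinases *Lyn* and *Fyn*, which act below *Cd36*, rose by 2.14 and 1.98. The cytoplasmic adaptors of *Lrp1* diverged, since *Gulp1*, an engulfment adaptor, fell most (-4.38, limma adjusted p = 0.00469), *Pid1* rose (3.03, limma adjusted p = 1.42e-05) and *Dab2* was not called (1.32, limma adjusted p = 0.0837) except in 6 of 23 alternatives. *Lrpap1*, the chaperone of *Lrp1*, had 9419 to 16606 in hypHSCs and 8495 to 12458 in qHSCs and was not called (0.25), and it turned to -0.69 on the *Hprt*, *Pgk1* and *Actb* scaling and to -0.11 with equal totals. *Pdzk1*, which anchors SR-BI in hepatocytes, had 67.4 to 155 and 17.2 to 89.8 and was not called (0.77, and -0.15 on that scaling).

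Of 11 regulators, all tested, 4 were higher and 1 lower, beside 17.8% and 21.7% of all genes tested, with a median of 0.56. *Pparg*, the nuclear receptor that drives *Cd36* in macrophages and fat cells, rose most, with 0 to 29.9 normalized counts in qHSCs and 764 to 1195 in hypHSCs (log2 fold change 7.40, limma adjusted p = 4.07e-05). *Spi1*, which encodes PU.1 (5.38), and *Nr1h3*, which encodes the oxysterol receptor LXRα (2.33), rose too. *Rxra*, the dimer partner of both nuclear receptors, fell (-1.77, limma adjusted p = 0.00409), and did so in 5 of 5 hypHSC libraries, which lay below all qHSC libraries. *Maf* (0.85, limma adjusted p = 0.0122) and *Nfe2l2*, which encodes NRF2 (0.43, limma adjusted p = 0.0337), missed the fold threshold, and both turned negative, at -0.088 and -0.51, on the *Hprt*, *Pgk1* and *Actb* scaling.

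**Figure D5:**
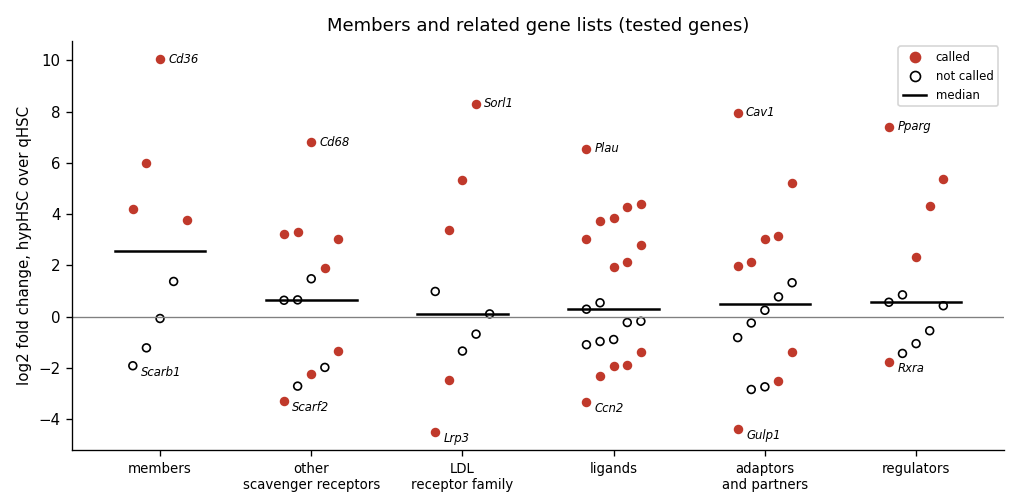
Log2 fold changes, hypHSC over qHSC, of the tested genes of the receptor list and of 5 related lists, filled red where called and open where not, with black bars at the medians and names at the highest and the lowest gene of each list. The medians run from 0.11 to 0.65 for the related lists and reach 2.57 for the 8 tested receptors. The cell type marker lists are not drawn. Their medians ran from -5.94 (quiescent stellate) to 7.43 (neutrophil), with 5.14 for macrophage markers.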

How the data were processed

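Poly(A)-primed cDNA of sorted cells was sequenced without strand information in 10 libraries. Per the study's methods, the authors mapped the reads to mm39 (GRCm39) with STAR, counted them per FAST DB gene with featureCounts and normalized them with DESeq2. The deposited signal is the count of each of 62322 entries divided by 1 size factor per library. Multiplication by the size factors gave whole reads (within 0.05) for 100% of the values. These reads were used for DESeq2 (1.42.0), edgeR (4.0.16) and FPKM, with GENCODE exon lengths for 92.0% of symbols. The deposited values were used for all else.

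The 25233 entries with a symbol were filtered at 10 normalized counts in 5 libraries and tested with limma (3.58.1, trend) in R 4.3.3 on log2(normalized count + 1), with Benjamini-Hochberg adjustment over 14630 genes. Contrasts were hypHSC against qHSC, and 13 against 12 weeks in a fit with 3 groups. Single genes were also compared by exact two-sided permutation. The steps were tested on simulated data. The members, lists and alternatives were chosen with earlier results of these data known. Genes named are the 10 members, the largest called rise and fall of each list, list genes whose role bears on a member, and the 2 nearest profiles of each tested member. Some list genes are counted but not reported here by name.

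Alternatives were a pseudocount of 10, no filter, 4 other scalings, DESeq2, edgeR, the replicate number as a block, hypHSCs at 12 weeks only, entries without a symbol included, and each library left out. The alternatives without qHSC 1 and 4 and without hypHSC 4 and 5 were added after the data had been seen. No pairing of the libraries by the same number in both groups was visible.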

Additional observations from a re-analysis of the deposited data

Results flagged for a closer look

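In 3 of the 19 pairs of a receptor and a group with any variation, 1 library lay farther from the rest than Dixon's critical value allows, measured as the gap to the nearest library over the range of the group (0.71 for 5 libraries). Chance alone flags about 1 in 20 such groups of normally distributed values, and the measure was taken on normalized counts. On the log2(normalized count + 1) scale used for the tests, the 3 values below were 0.322, 0.598 and 0.24 in the order given, and none passed. *Msr1* in qHSC 4 had 1195 normalized counts, with the next library at 304 (gap over range 0.756). *Stab1* in qHSC 4 had 506, with the next at 211 (0.758). The same library had the highest summed Kupffer cell markers (36172) and macrophage markers (82147) of the qHSC group, and the part of these cells in its receptor values was not tested. Without qHSC 4, the log2 fold change was 6.86 for *Msr1* and 4.55 for *Stab1*, and both remained called. *Scara3* in hypHSC 1 had 229, with the next at 61.5 (0.731). That library also had the highest share of mitochondrial reads (12.8%) and the highest summed portal fibroblast and mesothelial markers (2745) of the 10, and their part was not tested.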

How the results depend on the processing

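The calls of *Cd36*, *Olr1* and *Stab1* held in all 23 alternatives and that of *Msr1* in 22, since DESeq2 gave it no adjusted p. The count of members called was 4 in the main fit and 3 to 6 otherwise. It was 5 without a filter (with *Scara3*), without qHSC 4 and without qHSC 1 and 4 (with *Marco*), and 6 with libraries scaled on *Hprt*, *Pgk1* and *Actb* (with *Scarb1* and *Lrp1*, both lower). Of the 184 other values of members, 171 kept their direction and their side of the threshold. The *Lrp1* fold change turned to 0.051 (upper quartile), 0.12 (DESeq2), 0.16 (edgeR) and 0.65 (without hypHSC 4 and 5), and ranged from -0.28 to 0.30 with 1 library left out. The cause was not tested.

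Of the other 47 genes, *Apoe* turned to -0.065 with equal totals, -0.65 with the 3 reference genes, -0.024 without qHSC 1 and 4 and -0.71 without hypHSC 4 and 5 (-0.20 to 0.77 with 1 library left out). *Lrpap1* turned to -0.11 with equal totals and -0.69 with the reference genes, which also gave -0.40 for *Thbs1*, -0.15 for *Pdzk1*, -0.088 for *Maf* and -0.51 for *Nfe2l2*. *Clec4f* turned to -0.27 in DESeq2 and -0.24 in edgeR. The median fold change of all genes moved by -0.35 with equal totals, 0.12 with the upper quartile and -0.94 with the reference genes. Of all calls, 45.03% were higher in hypHSCs, but 32.4% with equal totals and 17.4% with the reference genes (1472 higher, 6990.0 lower). Calls numbered 9291 with entries without a symbol included (3911 higher, 5380.0 lower), where 24320 were tested.

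Between 13 and 12 weeks, 0 genes were called with a pseudocount of 10 (1967 at an unadjusted p under 0.05), 225 in DESeq2, 4 in edgeR, and 0 to 2478 with 1 library left out, the highest without hypHSC 3. Of the members 0 to 2 were called there.

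With the replicate number as a block, 5 members were called, *Marco* among them (limma adjusted p = 0.0488). Libraries of the same number correlated in their deviations at 0.0082 to 0.129, and only number 5 correlated best with its own number. No pairing by number was thus visible, though these correlations cannot exclude a weak one. At this depth *Scara3*, *Scara5* and *Scarf1* rest on few reads.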

Other observations

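The receptors were also set against the summed macrophage markers of each library, a description chosen after the values had been seen. Per 1000 counts of the 10 macrophage markers, *Msr1* had 4.6001 to 7.35 counts in hypHSCs and 4.15 to 14.5 in qHSCs, so that the groups overlapped. *Cd36* had 63.1 to 180 in hypHSCs and 0.923 to 17.3 in qHSCs, and remained higher in every hypHSC library. *Marco* had 0.481 to 1.79 in hypHSCs and 19.5 to 47.0 in qHSCs, and *Stab1* 2.16 to 4.30 and 5.03 to 38.1, lower in every hypHSC library on this scale. *Olr1* had 0.205 to 0.566 and 0.260 to 7.31, with overlap. The sum rests mainly on *Lyz2*, which made up 70.3% to 74.2% of it in hypHSCs and 34.2% to 40.96% in qHSCs. Each of the 10 markers was therefore also taken alone. *Cd36* stayed higher in every hypHSC library against 10 of 10 markers. *Marco* was lower in every hypHSC library against 9, and overlapped against *Csf1r*. *Stab1* overlapped against 9 and was lower in every hypHSC library against 1, *Lyz2*, so that its value per macrophage marker depended on the marker. Its median was higher in hypHSCs against 2 markers and lower against 8. *Msr1* overlapped against 8, was lower in every hypHSC library against *Lyz2* and higher in every one against *Aif1*. Its value thus depended on the marker as well. The median of *Msr1* was higher in hypHSCs against 8 markers and lower against 2, *Lyz2* and *Tyrobp*. *Olr1* overlapped against 10, with a lower median against all 10. Per 1000 counts of the 6 Kupffer cell markers, *Cd36* (5063 to 8472 against 3.21 to 156) and *Msr1* (315 to 616 against 15.3 to 81.2) were higher in every hypHSC library. *Marco* (34.1 to 120 against 44.3 to 528), *Stab1* (97.3 to 441 against 11.4 to 134) and *Olr1* (17.4 to 44.4 against 0.591 to 82.1) overlapped.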
